A study of Mus musculus with 4 samples.

Results

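The genes described here are 10 myosin motor and light chain genes, picked by name from the 41214 rows of the count table through their Ensembl identifiers. They are the nonmuscle class II heavy chain Myh9, the class I motors Myo1c, Myo1d, Myo1e, Myo1f and Myo1g, the class V motor Myo5a, the class IX motor Myo9b, and the regulatory light chains Myl9 and Myl12a. RNA was sequenced from B220+ splenocytes, the B cell fraction of the spleen taken on magnetic beads, of unstimulated mice on the C57BL/6 background that were about 6 to 10 weeks old. In MIZ-1DPOZ mice, a Cre recombinase expressed from the Mb1 (Cd79a) locus, which is active in B lineage cells, removed the POZ domain of the transcription factor MIZ-1 (gene Zbtb17). MIZ-1WT mice were the controls, and whether they carried the Cre is not given in the sources used here. There were 2 libraries per genotype, a biological duplicate according to the methods, and 43026814 to 46387209 counts on genes per library.

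Myosins are motors that walk along actin filaments using ATP. The heavy chain holds the motor, and light chains bound to its neck stiffen and control it. Nonmuscle myosin II assembles into bipolar filaments that contract actin networks once its regulatory light chain is phosphorylated. Class I myosins are single-headed and tie actin to membranes, class V myosin carries vesicles, and class IX myosin carries a domain that switches off the GTPase RHOA. In B cells, actin and its motors shape the cell cortex in which the B cell receptor lies, form the contact with an antigen-presenting surface and help to pull antigen in. The comparison of MIZ-1DPOZ with MIZ-1WT addresses which actin cytoskeleton genes differ in B220+ splenocytes that lack the POZ domain.

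The regulatory light chains are so alike that their sequences bear on how reads could be assigned, so the same stretch of coding sequence is shown for the 3 genes. It is taken from the GENCODE transcripts on build GRCm38 and spans coding bases 55 to 114, starting at the codons of the threonine and serine that the light chain kinases phosphorylate. Capitals mark bases that differ from Myl12a.
Myl12a: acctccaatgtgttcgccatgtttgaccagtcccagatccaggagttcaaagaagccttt
Myl12b: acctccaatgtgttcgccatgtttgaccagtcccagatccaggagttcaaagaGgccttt
Myl9: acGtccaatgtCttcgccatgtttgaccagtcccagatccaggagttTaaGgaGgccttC
Within these 60 bases, Myl12b differed from Myl12a at 1 base and Myl9 at 6. Over the whole coding sequence of 519 bases, Myl12a was 96.5% identical to its neighbour Myl12b and 85.5% identical to Myl9. Of the 470 windows of 50 bases, the length of a read, in the Myl12a coding sequence, 177 (37.7%) were also found unchanged in transcripts of Myl12b and 0 in those of Myl9. Reads were sequenced in pairs and the annotated exons of Myl12a span 3360 bases, so this is not a share of its reads.

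Promoter windows from RefSeq (GRCm38.p6, 250 bases before and 50 after a start) were matched for 9 of the 10 genes, and Myo1d was not matched. The windows of Myo1g and Myo1f are shown because these genes changed in opposite directions between the genotypes, and that of Myl9 because it is the smooth muscle light chain. Capitals mark motif matches.
Myo1g, chr11:6520909-6521208, minus strand: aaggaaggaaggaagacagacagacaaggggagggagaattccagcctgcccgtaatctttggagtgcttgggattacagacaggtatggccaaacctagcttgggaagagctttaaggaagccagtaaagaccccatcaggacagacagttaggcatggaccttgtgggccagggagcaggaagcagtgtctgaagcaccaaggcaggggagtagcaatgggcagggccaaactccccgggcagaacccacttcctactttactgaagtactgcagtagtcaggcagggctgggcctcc
Myo1f, chr17:33555457-33555756, plus strand: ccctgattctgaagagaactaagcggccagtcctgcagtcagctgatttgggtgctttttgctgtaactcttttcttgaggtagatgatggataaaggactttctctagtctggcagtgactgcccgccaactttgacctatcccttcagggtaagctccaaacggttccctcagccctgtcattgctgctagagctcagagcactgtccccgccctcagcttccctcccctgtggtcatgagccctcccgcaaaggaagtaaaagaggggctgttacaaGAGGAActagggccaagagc
Myl9, chr2:156775214-156775513, plus strand: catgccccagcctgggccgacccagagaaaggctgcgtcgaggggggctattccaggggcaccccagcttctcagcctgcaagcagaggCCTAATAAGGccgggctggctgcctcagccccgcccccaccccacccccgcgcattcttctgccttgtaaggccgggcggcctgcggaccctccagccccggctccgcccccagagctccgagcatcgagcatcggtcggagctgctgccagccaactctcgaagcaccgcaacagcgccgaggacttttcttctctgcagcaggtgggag
Both strands were searched for the CArG box, which binds the actin-responsive factor SRF, for the E box CACGTG, bound by MYC and related factors, for GAGGAA, the core of many PU.1 sites, and for ATCGAT. The CArG box was in 1.63% of all 32851 windows, CACGTG in 7.15%, GAGGAA in 28.3% and ATCGAT in 0.925%. Myl9 held a CArG box 161 bases before its start and Myo1e held CCATTTATGG 32 bases before its start. Myo1f held GAGGAA 30 bases after its start. Myo1c held it on the minus strand, and Myl12a held it there as well as a CACGTG. None of these letters were in the windows of Myh9, Myo1g, Myo5a and Myo9b. A match is a description of the window only.

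Levels are given as CPM, TMM-scaled counts per 1000000, and, where genes are compared with each other, as RPKM, which is CPM per kilobase of annotated exon. Changes are log2 fold changes of MIZ-1DPOZ over MIZ-1WT with the standard error (SE), and a change was called where the quasi-likelihood test of edgeR gave an adjusted p under 0.05 (Benjamini-Hochberg, over the 14554 genes tested). Of the 10 genes, 9 had enough counts to be tested and Myl9 had not. In MIZ-1DPOZ, 6 fell (Myh9, Myo1c, Myo1d, Myo1e, Myo1g and Myl12a), 1 rose (Myo1f) and 2 were not called (Myo5a and Myo9b). Calls were common in this comparison: of all genes tested, 40.0% were called, 21.1% higher and 18.9% lower. The median log2 fold change of the 9 tested genes was -0.18, against -0.01 over all genes tested. Of the 9, 8 had a mean of at least 30 CPM, and among the 6048 genes at that level 48.0% were called, 31.6% lower and 16.4% higher, with a median log2 fold change of -0.08. Both MIZ-1DPOZ libraries lay below both MIZ-1WT libraries for 7 of the 9, which 37.6% of all tested genes and 51.6% of those of at least 30 CPM did as well. They lay above for 1 of the 9, as 37.2% of all tested genes and 29.4% of those of at least 30 CPM did.

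**Figure D1:**
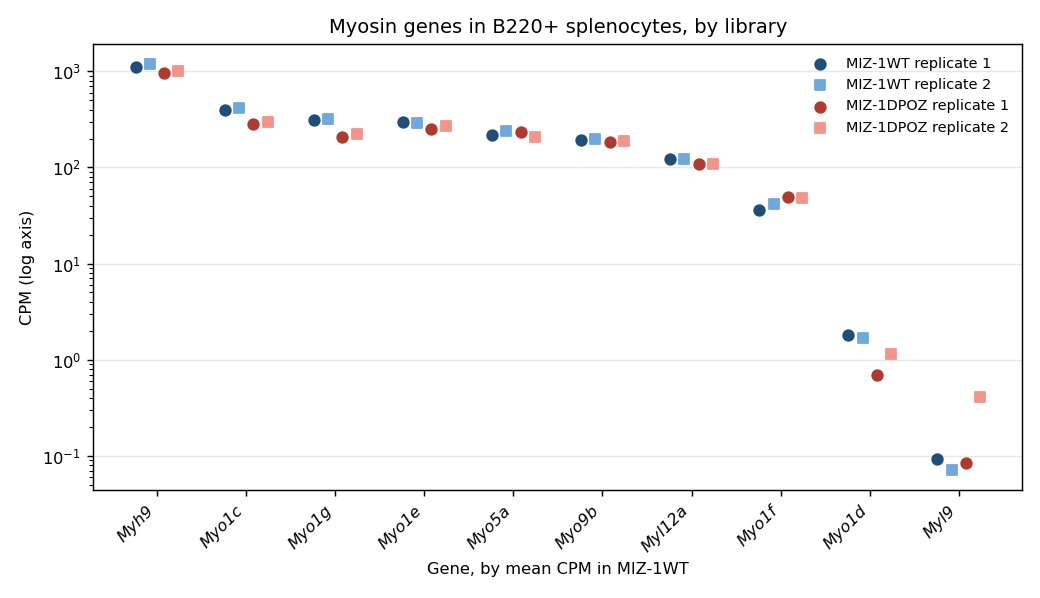
CPM of the 10 myosin genes (log axis) in each library, with circles for replicate 1 and squares for replicate 2, blue for MIZ-1WT and red for MIZ-1DPOZ. Myo1c and Myo1g lay lower in both MIZ-1DPOZ libraries, Myo1f lay higher, the libraries of Myo5a overlapped, and Myl9 was at a few counts per library.

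Myo1g had the clearest change of the 10. It encodes a class I myosin made largely by blood cells, which sits under the plasma membrane of lymphocytes, and lies at chr11:6506548-6520965 on the minus strand. It had 314.5 and 322.5 CPM in the MIZ-1WT libraries and 205.9 and 220.2 CPM in the MIZ-1DPOZ libraries. The groups were far apart compared with the spread within each. Its log2 fold change was -0.58 (SE 0.052, adjusted p = 0.00155, edgeR), so that the mean fell by 33.1%, and 4.03% of the genes of at least 30 CPM had a lower fold change.

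Myo1c (chr11:75650504-75673910, plus strand), a widely expressed class I motor that links membranes to actin and also has a nuclear isoform, behaved alike. Its level was 391.5 and 410.8 CPM in MIZ-1WT and 283.3 and 300.2 CPM in MIZ-1DPOZ, again without overlap. The mean fell by 27.3%, a log2 fold change of -0.46 (SE 0.053, adjusted p = 0.00271, edgeR). In RPKM, Myo1c went from 60.9 ± 2.07 (SD, n = 2) in MIZ-1WT to 44.3 ± 1.81 (SD, n = 2) in MIZ-1DPOZ.

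Myo1e (chr9:70207350-70399766, plus strand) is a long-tailed class I myosin with an SH3 domain that works at sites of endocytosis. It had 297.3 and 289.8 CPM in MIZ-1WT and 249.0 and 267.6 CPM in MIZ-1DPOZ. The 4 libraries did not overlap between genotypes, but the gap was of the size of the spread within MIZ-1DPOZ. The mean fell by 12.0%, a log2 fold change of -0.18 (SE 0.053, adjusted p = 0.0384, edgeR).

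Myo1f (chr17:33555707-33607764, plus strand), the second long-tailed class I myosin, is best known from neutrophils, macrophages and mast cells, and it was the gene that rose. It had 36.1 and 41.2 CPM in MIZ-1WT and 49.1 and 48.3 CPM in MIZ-1DPOZ. Both MIZ-1DPOZ libraries lay above both MIZ-1WT libraries. Its mean was 26.1% higher, a log2 fold change of 0.33 (SE 0.077, adjusted p = 0.0201, edgeR), and 90.7% of the genes of at least 30 CPM had a lower fold change.

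Myo1d (chr11:80482126-80780025, minus strand), a short-tailed class I myosin, was close to the lower end of detection. It had 79 and 71 counts in MIZ-1WT and 33 and 50 counts in MIZ-1DPOZ, which are 1.81, 1.69, 0.694 and 1.14 CPM. The groups did not overlap, while the MIZ-1DPOZ libraries differed from each other more than the MIZ-1WT libraries did. It fell by 0.94 on the log2 scale (SE 0.29, adjusted p = 0.0482, edgeR), with a 95% interval from -1.66 to -0.22. Without MIZ-1DPOZ replicate 1 the log2 fold change was -0.61, and without MIZ-1DPOZ replicate 2 it was -1.31.

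Myh9 (chr15:77760587-77842175, minus strand) encodes the heavy chain of nonmuscle myosin IIA, the contractile myosin of lymphocytes, and it had the highest level of the 10 genes in CPM and in RPKM. It had 1096 and 1184 CPM in MIZ-1WT and 958.0 and 1008 CPM in MIZ-1DPOZ. The mean fell by 13.8%, a log2 fold change of -0.21 (SE 0.063, adjusted p = 0.0410, edgeR), and the MIZ-1WT libraries were as far apart from each other as the closest libraries of the 2 genotypes. Of the counts on the 3 nonmuscle class II heavy chains, Myh9 took 99.96% and 99.95% in MIZ-1WT and 99.93% and 99.94% in MIZ-1DPOZ. The libraries did not overlap in that share, but an exact permutation test of 2 against 2 cannot go below p = 0.333, the value it gave (two-sided). Myh10 had 13, 18, 31 and 19 counts (log2 fold change 0.58, adjusted p = 0.272, edgeR) and Myh14 had too few to be tested.

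Myo5a (chr9:75071015-75223688, plus strand), the class V vesicle motor, had 217.2 and 237.2 CPM in MIZ-1WT and 234.3 and 205.7 CPM in MIZ-1DPOZ. The genotypes overlapped, and the log2 fold change was -0.05 (95% interval -0.24 to 0.15, adjusted p = 0.664, edgeR). Myo9b (chr8:71272714-71360713, plus strand), which joins a motor to a GTPase-activating domain, had 191.7 and 198.7 CPM in MIZ-1WT and 182.2 and 189.4 CPM in MIZ-1DPOZ. The MIZ-1DPOZ libraries lay just below the others, and the log2 fold change was -0.07 (95% interval -0.19 to 0.05, adjusted p = 0.272, edgeR). For these 2 genes the direction changed with the scaling: with only genes of at least 30 reads per 1000000 (RPM) in the fit, the log2 fold changes were 0.03 and 0.0046. Myo9b shares 116 exon bases with Haus8 on the other strand, which had 1187 to 1423 counts per library, and the strand setting of the counting is not given in the sources used here.

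Myl12a (chr17:70993656-71002878, minus strand) encodes a regulatory light chain of nonmuscle myosin II. It had 121.2 and 121.1 CPM in MIZ-1WT and 108.5 and 107.7 CPM in MIZ-1DPOZ. The libraries of each genotype almost coincided. The mean fell by 10.8%, a log2 fold change of -0.17 (SE 0.043, adjusted p = 0.0283, edgeR). Myl12b, which lies next to it at chr17:70973133-70990890 and encodes a nearly identical protein, had 216.6 and 224.0 CPM in MIZ-1WT and 202.6 and 221.9 CPM in MIZ-1DPOZ (log2 fold change -0.05, adjusted p = 0.500, edgeR). With the counts of both genes summed, the log2 fold change was -0.09 and no longer passed the threshold (adjusted p = 0.190, edgeR). Reads without a unique alignment were counted in a row that names no gene, and reads from the shared coding windows given above could fall there. How many reads each gene lost in this way was not tested, so the split between them is uncertain. Myl12a also shares 207 exon bases with Myom1 on the other strand, which had 62 and 116 counts in MIZ-1WT and 588 and 282 in MIZ-1DPOZ.

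Myl9 (chr2:156775420-156781658, plus strand), the regulatory light chain typical of smooth muscle and platelets, was barely detected. It had 4 and 3 counts in MIZ-1WT and 4 and 18 counts in MIZ-1DPOZ, and so was left out of the test. As a share of the counts on the 3 regulatory light chains, these were 0.0271%, 0.0207%, 0.0270% and 0.124%. The higher value rested on MIZ-1DPOZ replicate 2 (exact permutation test, two-sided p = 0.667, smallest possible 0.333). The summed CPM of 9 smooth muscle and pericyte genes was 0.779, 0.785, 0.715 and 0.820, and that of 10 megakaryocyte and platelet genes was 6.44, 7.76, 18.2 and 12.8, in the order MIZ-1WT then MIZ-1DPOZ. Most of the latter sum was Clec1b alone, at 4.77, 5.85, 16.2 and 10.8 CPM. Of the 4 tested genes of this list, 2 rose (Clec1b and Pf4) and 0 fell. Over all genes tested, 21.1% were called higher and 18.9% lower. Pf4 had 6 and 3 counts in MIZ-1WT and 25 and 15 in MIZ-1DPOZ (log2 fold change 2.02, adjusted p = 0.0273, edgeR). Itga2b and Ppbp had log2 fold changes of -0.14 and -0.49 and were not called. The part of these cells in the Myl9 counts was not tested.

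The calls differed in how firmly they stood. Myo1c and Myo1g passed the threshold in each of the 10 other settings tried, with log2 fold changes from -0.50 to -0.38 for Myo1c and from -0.61 to -0.50 for Myo1g. Myo1f lost its call without MIZ-1WT replicate 1 (log2 fold change 0.24, adjusted p = 0.101, edgeR). Myh9, Myo1d and Myo1e each lost theirs without MIZ-1WT replicate 1 (adjusted p = 0.0810, 0.171 and 0.195), without MIZ-1WT replicate 2 (0.204, 0.129 and 0.130) and without MIZ-1DPOZ replicate 1 (0.121, 0.174 and 0.110, all edgeR). Myl12a lost it without MIZ-1WT replicate 1, MIZ-1WT replicate 2 or MIZ-1DPOZ replicate 2 (adjusted p = 0.168, 0.156 and 0.0576, edgeR). In a fit of only genes of at least 30 RPM, Myh9, Myo1e and Myl12a had log2 fold changes of -0.14, -0.11 and -0.09 and were not called (adjusted p = 0.109, 0.156 and 0.108, edgeR). With the fold limit named in the methods, 0.6 on the log2 scale in either direction, taken here together with an unadjusted p under 0.05, 1 gene was lower (Myo1d) and 0 were higher, against 5.30% and 15.0% of all genes tested.

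Per length, the heavy chains ranked Myh9, Myo1c, Myo1e, Myo1g, Myo9b, Myo5a, Myo1f and Myo1d in MIZ-1WT, with mean RPKM of 88.2, 60.9, 51.5, 45.8, 26.04, 15.3, 7.77 and 0.271. In MIZ-1DPOZ the means were 76.0, 44.3, 45.3, 30.6, 24.8, 14.9, 9.80 and 0.142 RPKM. The order was thus the same but for Myo1c and Myo1e, whose MIZ-1DPOZ values of 43.0 and 45.6 RPKM for Myo1c and 43.6 and 46.9 RPKM for Myo1e overlapped. Neighbours elsewhere in the order did not overlap in either genotype.

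The sum over all 38 myosin heavy chain genes was 319.3 ± 9.84 RPKM (SD, n = 2) in MIZ-1WT and 273.8 ± 6.56 RPKM (SD, n = 2) in MIZ-1DPOZ, with no overlap (exact permutation test, two-sided p = 0.333, the smallest possible). Within that sum, the share of Myh9 overlapped between genotypes, with 27.15% and 28.08% in MIZ-1WT and 27.53% and 28.01% in MIZ-1DPOZ. Myo1c took 19.03% and 19.12% in MIZ-1WT and 15.98% and 16.37% in MIZ-1DPOZ. Myo1g took 14.5% and 14.2% in MIZ-1WT and 11.0% and 11.4% in MIZ-1DPOZ. The 5 class I genes together had 52.6% and 51.5% in MIZ-1WT and 46.9% and 48.1% in MIZ-1DPOZ. For Myo1f the share was 2.32% and 2.54% in MIZ-1WT and 3.67% and 3.49% in MIZ-1DPOZ. Each of these differences but that of Myh9 lay outside the overlap of the libraries, and none can reach a p under 0.333 with 2 against 2.

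**Figure D2:**
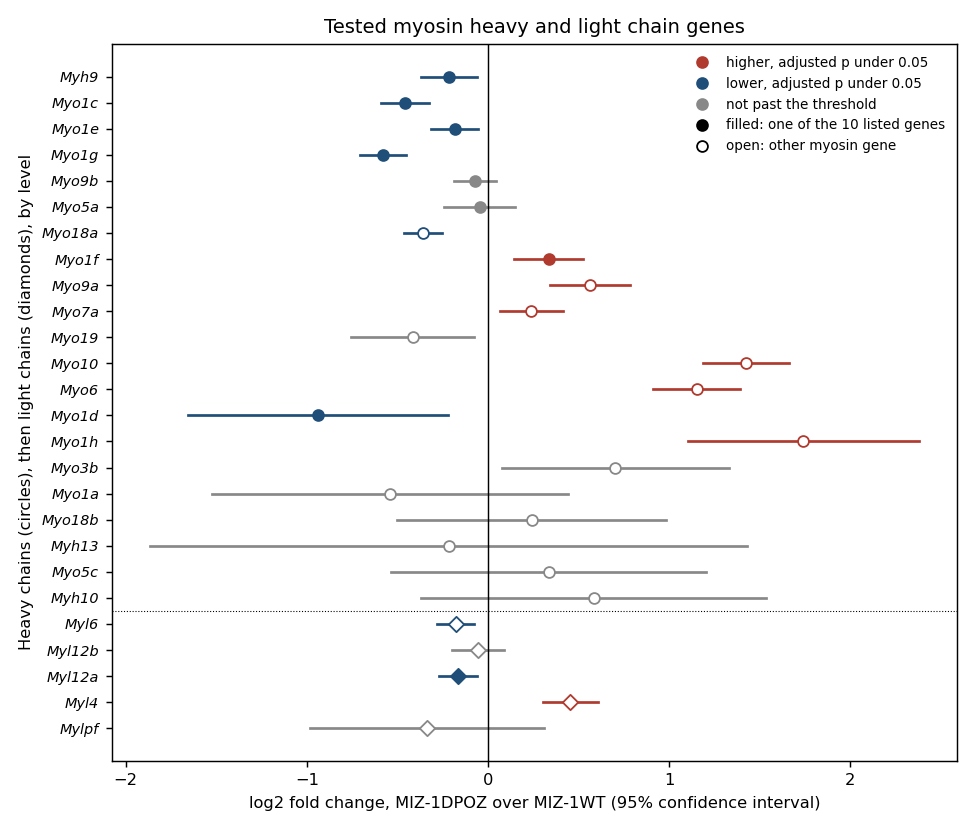
log2 fold change (MIZ-1DPOZ over MIZ-1WT) with its 95% confidence interval for 21 of the 22 tested heavy chains (circles) and 5 tested light chains (diamonds), ordered by level in MIZ-1WT. The 4 heavy chains with the highest levels lie left of 0 with narrow intervals, while the intervals of Myo9b and Myo5a below them cross 0. The calls to the right of 0 are Myo1f, Myl4 and 5 further heavy chains.

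Other myosin genes went both ways. Of 17 other unconventional myosins, 12 were tested, 6 rose, 1 fell and 5 were not called, beside 21.1% higher and 18.9% lower over all genes tested. Myo10, a motor that builds filopodia, had 408 and 345 counts in MIZ-1WT and 1145 and 1015 in MIZ-1DPOZ (log2 fold change 1.43, adjusted p = 0.000867, edgeR). Myo6, which moves toward the minus end of actin filaments, had 279 and 292 counts in MIZ-1WT and 708 and 649 in MIZ-1DPOZ (log2 fold change 1.15, adjusted p = 0.00137, edgeR). Myo18a, which lacks motor activity, was the gene that fell, from 148.4 and 149.2 CPM to 115.5 and 116.4 CPM (log2 fold change -0.36, adjusted p = 0.00283, edgeR). Of 13 other class II heavy chains, Myh10 and Myh13 were tested and neither was called, with log2 fold changes of 0.58 and -0.22. By level in MIZ-1WT, 9 of the 22 tested heavy chains had at least 5 RPKM, of which 5 fell and 2 rose, with a median log2 fold change of -0.18. The other 13 had less, and of these 1 fell and 5 rose, with a median of 0.33. That limit was chosen after the values were seen, so the split is a description.

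**Figure D3:**
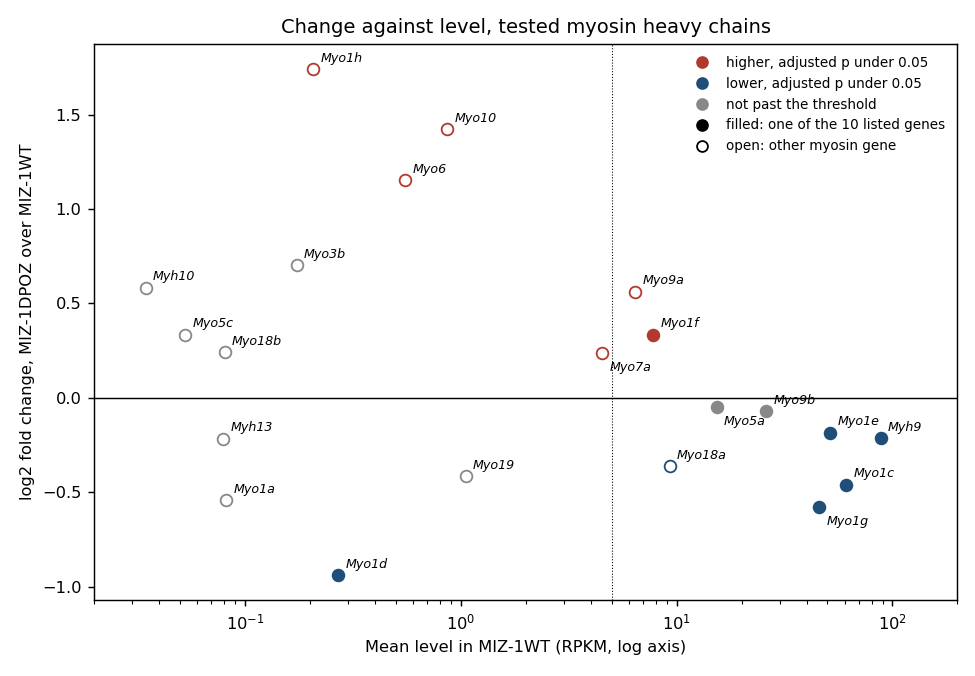
log2 fold change of 21 of the 22 tested heavy chains against their mean RPKM in MIZ-1WT (log axis), filled for the 10 listed genes and open for the rest, with a dotted line at 5 RPKM. Myo1h, Myo10 and Myo6, all under 2 RPKM, lie above 1, and the 4 genes with the highest levels lie between -0.58 and -0.18.

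Of 10 other light chains, 4 were tested. Myl6, the essential light chain that pairs with nonmuscle myosin II, went from 230.5 and 232.6 CPM in MIZ-1WT to 204.8 and 204.8 CPM in MIZ-1DPOZ (log2 fold change -0.18, adjusted p = 0.0209, edgeR). Myl4, an essential light chain known from atrial and embryonic muscle, rose from 23.7 and 23.9 CPM to 32.9 and 32.3 CPM (log2 fold change 0.46, adjusted p = 0.00415, edgeR). The list of kinases and phosphatase genes drawn up for light chain phosphorylation went both ways, with 6 of 15 tested higher and 4 lower. Over all genes tested, 21.1% were higher and 18.9% lower. Rock1, a kinase that favours phosphorylation of the light chain, fell by 0.34 on the log2 scale (adjusted p = 0.00381, edgeR). Rock2 fell by 0.31 (adjusted p = 0.0166, edgeR). Stk4, a kinase counted in this list although no action on the light chain is shown here, fell by 0.34 (adjusted p = 0.00370, edgeR). Cdc42bpb and Cit, kinases that act on the light chain, each had a log2 fold change of 1.23 (adjusted p = 0.000867 and 0.00379, edgeR). Mylk, the classical light chain kinase, had too few counts to be tested.

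Of the 11 small GTPases, G proteins and exchange factors upstream of myosin II, all were tested, with 5 higher and 2 lower. Gna12, a G protein that activates exchange factors of small GTPases, had a log2 fold change of 0.78, and Ect2, the exchange factor of dividing cells, of 1.16. The exchange factors Arhgef18 and Arhgef11 fell by 1.08 and 0.29 on the log2 scale. Of 11 genes of the actin filament itself, 10 were tested, 2 rose and 3 fell. The tropomyosins Tpm4 and Tpm1, which line actin filaments and gate the access of myosins, fell by 0.42 and 0.39 on the log2 scale. Actn1, a filament crosslinker, had a log2 fold change of 1.44. Actb, the main actin gene, had -0.03 (adjusted p = 0.797, edgeR). Of 12 chaperones, calmodulins and myosin V adaptors, 9 were tested. Calm3, a calmodulin gene whose product is the light chain of most unconventional myosins, had a log2 fold change of 0.23. Dynll1, a dynein light chain gene, fell by 0.43 on the log2 scale. Its paralog Dynll2 had a log2 fold change of -0.11 and was not called (adjusted p = 0.628, edgeR). Over the 95 genes of these 7 lists, 63 were tested, 21 rose and 12 fell, with a median log2 fold change of 0.01, against -0.18 for the 9 tested genes of the 10. This total and the counts of the single lists stand beside 21.1% higher and 18.9% lower over all genes tested. The lists were not matched for level. Of the 9, 8 had at least 30 CPM, and all genes at that level had a median of -0.08, with 31.6% lower and 16.4% higher. In the fit of only genes of at least 30 RPM, 8 of the other actomyosin genes were higher and 8 lower.

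**Figure D4:**
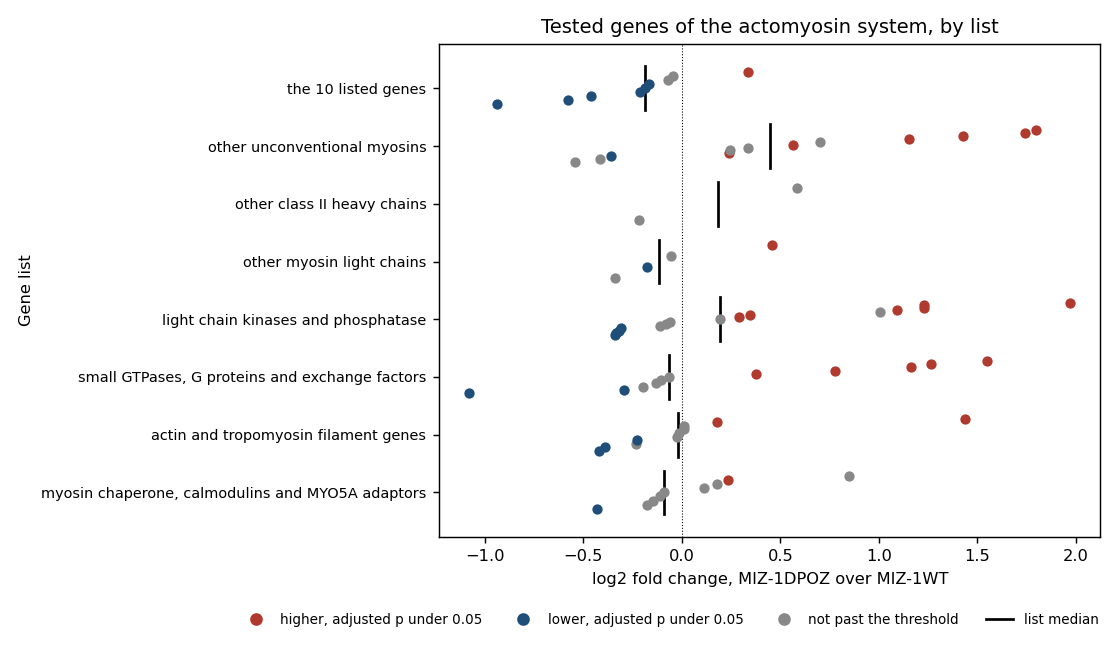
log2 fold change of each tested gene (point) by list, red for called higher, blue for called lower, grey for not called, with a bar at the list median. The 10 listed genes lie mostly left of 0, with a median of -0.18, while the other unconventional myosins have a median of 0.45. The lists were not matched for level.

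In a bulk sample, fewer cells of a type and less RNA per cell cannot be told apart, and marker genes of several cell types moved with genotype. The 10 genes together had 2668 and 2807 CPM in MIZ-1WT and 2271 and 2349 CPM in MIZ-1DPOZ, a ratio of 0.844. Of 10 genes that mark B cells in general, among them Ms4a1 and Cd79b, 8 fell, with a median log2 fold change of -0.26, and their sum was 11819 and 12112 CPM in MIZ-1WT and 9738 and 10259 CPM in MIZ-1DPOZ. Follicular B cell genes fell for 3 of 6 (2195 and 2232 CPM, then 1812 and 1961 CPM), and marginal zone B cell genes rose for 7 of 7 (2775 and 2764 CPM, then 3452 and 3691 CPM). Red pulp macrophage genes rose for 16 of 16, with sums of 980.5 and 1306 CPM in MIZ-1WT and 5833 and 3646 CPM in MIZ-1DPOZ, and monocyte genes for 4 of 6 (83.1, 75.9, 167.1 and 308.2 CPM). Plasma cell genes rose for 5 of 6 (734.2, 1059, 2478 and 2310 CPM). Neutrophil genes rose for 2 of 7 tested, at 4.83 to 17.9 CPM in all. Of the other tested markers, 2 of 11 T cell, 1 of 7 NK cell, 4 of 8 conventional dendritic cell and 1 of 5 plasmacytoid dendritic cell genes rose. So did 2 of 4 megakaryocyte and platelet, 1 of 9 erythroid and 1 of 6 endothelial genes. The NK cell, conventional dendritic cell and endothelial lists each had 1 gene that fell. All these counts stand beside 21.1% called higher and 18.9% called lower over all genes tested. The log2 fold changes of the 10 general B cell genes ranged from -0.48 to -0.10. Those of the 8 myosin genes of at least 30 CPM ranged from -0.58 to 0.33. The part of these cell types in the change of any myosin gene was not tested.

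**Figure D5:**
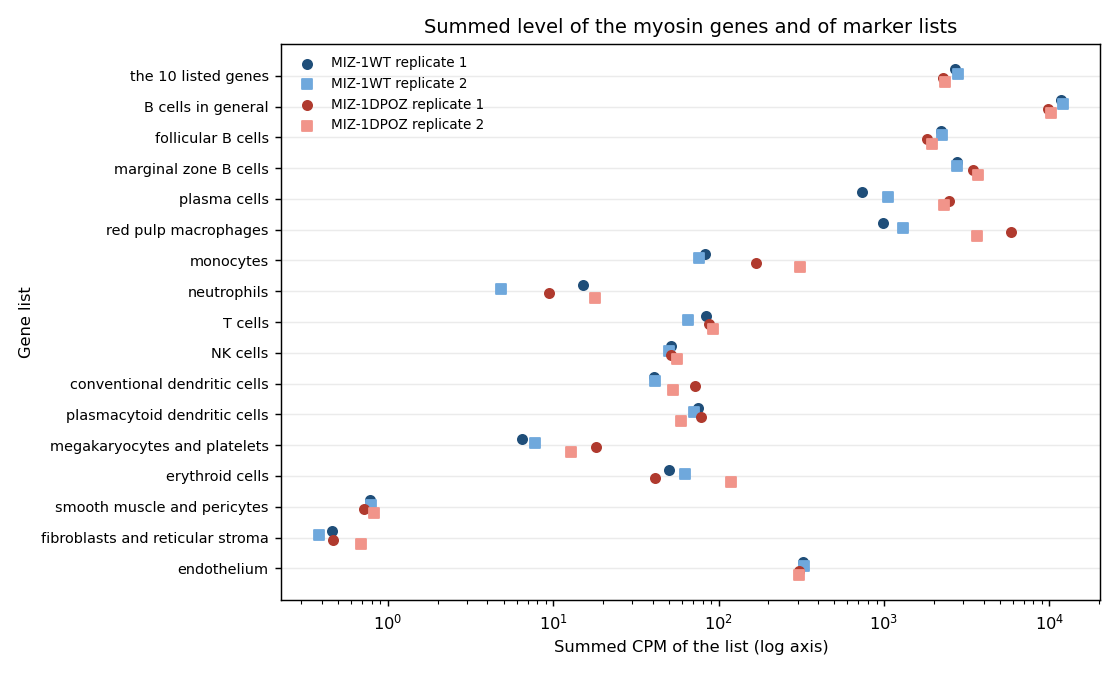
Summed CPM (log axis) of the 10 myosin genes and of 16 marker lists in each library, with circles for replicate 1 and squares for replicate 2, blue for MIZ-1WT and red for MIZ-1DPOZ. The red pulp macrophage, plasma cell and marginal zone lists lie higher in both MIZ-1DPOZ libraries, and the myosin genes and the general B cell list lie lower.

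The targeted gene Zbtb17 had 2087 and 1946 counts in MIZ-1WT and 1774 and 1669 in MIZ-1DPOZ (log2 fold change -0.32, adjusted p = 0.00857, edgeR), and a deletion that leaves part of the transcript need not lower its total. The libraries of the 2 genotypes also differed in sex-linked transcripts. Xist had 49 and 60 counts in MIZ-1WT and 38145 and 40838 in MIZ-1DPOZ, and the Y-linked Ddx3y had 15840 and 14896, then 680 and 622. All 4 Y-linked genes examined were still detected in both MIZ-1DPOZ libraries, at 245 to 680 counts each, and the source of these counts was not tested. Genotype and sex therefore cannot be told apart for any gene here, and none of the 10 myosin genes lies on the X or Y chromosome.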

How the data were processed

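RNA of B220+ splenocytes was ribodepleted, made into stranded libraries and sequenced as paired-end reads of 50 bases. The authors aligned reads with TopHat2 (2.1.0 per the labels) to mouse build GRCm38, counted them per Ensembl gene with HTSeq and deposited raw counts. The strand setting is not given in the sources used here. Rows that name no gene were left out: of each column's total, no feature took 21.1% to 27.2%, ambiguous reads 0.28% to 0.30% and reads without a unique alignment 42.8% to 44.15%. The 40340 identifiers with a symbol, coordinates and exon lengths came from GENCODE vM21 on the same build.

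The 14554 genes that reached 10 counts in 2 or more libraries were scaled by TMM (factors 0.977 to 1.026) and tested with edgeR 4.0.16 (quasi-likelihood, common dispersion 0.00848) in R 4.3.3, after a test on simulated counts. Alternatives were DESeq2 1.42.0, other filters and scalings, single libraries left out and a replicate block. Counts carry counting error, so Myl9 and Myo1d are the least precise.

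The members and lists were chosen with earlier results of these data known. Named genes were all members and, in each other list, up to 2 per direction with the smallest adjusted p among those called, plus close paralogs, Mylk, Rock1 and Rock2; of marker lists, abundant genes. Actb, Myo1h, Myh13, Dynll2, Ppbp and genes overlapping a member are outside that rule and were named after their values were seen. Some genes that this rule would name are counted but not reported by name here. Coding sequences were aligned with Biopython 1.88.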

Additional observations from a re-analysis of the deposited data

How the results depend on the processing

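Of 14554 genes tested, 5822 were called. With only genes of at least 30 RPM this was 2746 of 6052 genes, and when single libraries were left out it ranged from 2222 (without MIZ-1WT replicate 1) to 5581, with 2843 without MIZ-1WT replicate 2. Of the 10 myosin genes, 6 were lower and 1 higher. With genes of at least 30 RPM, 2 were lower, the median log2 fold change moved from -0.18 to -0.0988, and 8 in place of 21 other actomyosin genes were higher. With a fold limit of 0.6 on the log2 scale and an unadjusted p under 0.05, 1 was lower and 0 were higher. Leaving out single libraries gave 2 to 5 lower and 0 to 1 higher, and 12 to 20 other actomyosin genes higher (21 with all libraries) and 6 to 13 lower (12 with all libraries), the lowest without MIZ-1WT replicate 1. Myosin genes called lower numbered 2, 2, 3 and 5 without MIZ-1WT replicate 1, MIZ-1WT replicate 2, MIZ-1DPOZ replicate 1 and MIZ-1DPOZ replicate 2, in that order. In DESeq2, Myo1d (adjusted p = 0.104) and Myl12a (0.0531) were not called. Myo5a, not called in any setting, had log2 fold changes of 0.0297 at 30 RPM, 0.0158 without MIZ-1WT replicate 2 and, over all single libraries left out, from -0.1343 to 0.0636 (without MIZ-1DPOZ replicate 2), and Myo9b had 0.0046 at 30 RPM. The difference in the Myl9 share of regulatory light chain counts went from 0.0517 to 0.130 percentage points when counts were divided by exon length, as Myl9 is the shortest. Genes of at least 30 CPM had a median log2 fold change of -0.0791 in the main fit. In the fit at 30 RPM, the median over all genes tested was -0.0026. The cause of the other changes was not tested. With 1 library left out, 1 genotype had a single library, which was assumed to vary like the other genotype.

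Replicate numbers are shared between genotypes in the labels, but nothing says that they pair the mice, and the deviations of same-numbered libraries had a correlation of -0.109 over 11160 genes. With the replicate block, 4732 of the 14554 genes were called. Of the 10, 3 were lower (Myh9, Myo1c and Myo1g) and Myo1f was still higher (adjusted p = 0.0325, edgeR), while Myo1d, Myo1e and Myl12a had adjusted p = 0.0618, 0.0775 and 0.0820 (edgeR).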

Other observations

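Among 11160 genes with a mean count of at least 100, the genes whose levels over the 4 libraries lay closest to Myo1f (distance in log2 CPM centred on the mean of MIZ-1WT) were Slc12a4 (0.0201), a potassium chloride cotransporter, Rras2 (0.0292), a RAS family GTPase, and Zgrf1 (0.0313). Closest to Myo1d were Wnt10a (0.0803), Gm25117 (0.125) and Rab6b (0.152). Rras2 had 140.8 and 156.5 CPM in MIZ-1WT and 187.6 and 186.6 CPM in MIZ-1DPOZ, and Wnt10a had 3.67 and 3.28 CPM, then 1.47 and 2.26 CPM. With 4 libraries such likeness is a description of level only.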
